A study of Mus musculus with 2 samples.

Results

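The 53 genes described here are the secreted Wnt ligands of the mouse, their Frizzled and Lrp receptors, the secreted proteins and receptors that tune them, and the proteins that carry the signal to the nucleus. They were taken by symbol from a fixed list, matched to the Ensembl identifiers of the files, and they are 53 of the 43346 genes in the gene tables. The list holds 19 Wnt ligands, 12 receptors (10 Frizzled and 2 Lrp genes), 15 modulators and 7 effectors. The RNA came from the central nervous system of C57BL/6J mouse embryos at day 14, sexes mixed, with no genetic change or treatment named in the labels. There was 1 group of 2 biological replicates, each a separate sample of pooled littermates listed under a shared donor identifier. Poly(A)+ RNA of over 200 nucleotides, depleted of ribosomal RNA, was made into strand-specific paired-end libraries with added spike-in RNA. With 2 values in 1 group no exact test can give a small p-value, so each replicate's value, the mean and the standard deviation are reported and no difference is called significant.

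Wnt proteins are lipid-modified signals that act over short distances. In the canonical branch a Wnt bridges a Frizzled receptor and Lrp5 or Lrp6, which disables the Axin scaffold that otherwise marks beta-catenin for destruction. Beta-catenin (Ctnnb1) then accumulates, enters the nucleus and binds the Tcf/Lef factors on their target genes. In the embryonic nervous system the pathway is known for patterning the dorsal midline, the midbrain and hindbrain border and the cortical hem, for progenitor growth, for axon guidance and for the growth of brain vessels.

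Replicate 1 held 99528934 expected counts on genes and replicate 2 held 134760822; expected counts are estimates of read pairs per gene. The tissue label was checked against marker genes. All 6 neuron markers and all 6 progenitor markers were abundant, with summed levels of 3081 and 1960 TPM (a level per length of transcript, scaled to the library) in replicate 1 and 3513 and 2233 TPM in replicate 2. Markers of tissues outside the nervous system were present too, and mostly in replicate 1. The 8 skeletal muscle markers summed to 597 TPM in replicate 1 and 11.6 TPM in replicate 2, and the 6 cartilage markers to 738 and 114 TPM. The values of both replicates are therefore given for every gene below. In bulk RNA of this kind, fewer cells of a type and less RNA per cell cannot be told apart.

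At a mean of at least 1 TPM, 45 of the 53 genes were detected, or 84.9%, against 65.2% of all 21474 protein-coding genes. The 12 receptors and the 7 effectors were all above that level. The 8 genes below it were Wnt2, Wnt3a, Wnt8a, Wnt9b, Wnt10a, Wnt16, Rspo4 and Lgr6, so 6 of them were ligands. Class medians were lowest for ligands, then came modulators, receptors and effectors. The median ligand was at 1.86 TPM in replicate 1 and 1.77 TPM in replicate 2. The median modulator was at 6.63 and 3.15 TPM, the median receptor at 12.0 and 11.2 TPM, and the median effector at 27.0 and 27.2 TPM.

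On the log2(TPM + 1) scale, which compresses differences between low genes, the receptor median exceeded the ligand median by 2.16 ± 0.03 (SD, n = 2). The effector median exceeded the ligand median by 3.32 ± 0.04 (SD, n = 2). Both gaps were many times the spread between the replicates, which does not measure the spread of genes within a class. They also changed with the processing, from 0.97 to 2.60 for receptors and from 1.71 to 3.83 for effectors. The modulator median exceeded the ligand median by 1.42 in replicate 1 and 0.58 in replicate 2, a mean of 1.00 ± 0.59 (SD, n = 2). That gap was thus less repeatable between the replicates. The classes are broad and overlap: Wnt7b, the highest ligand, was above 10 of the 12 receptors in replicate 1.

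**Figure D1:**
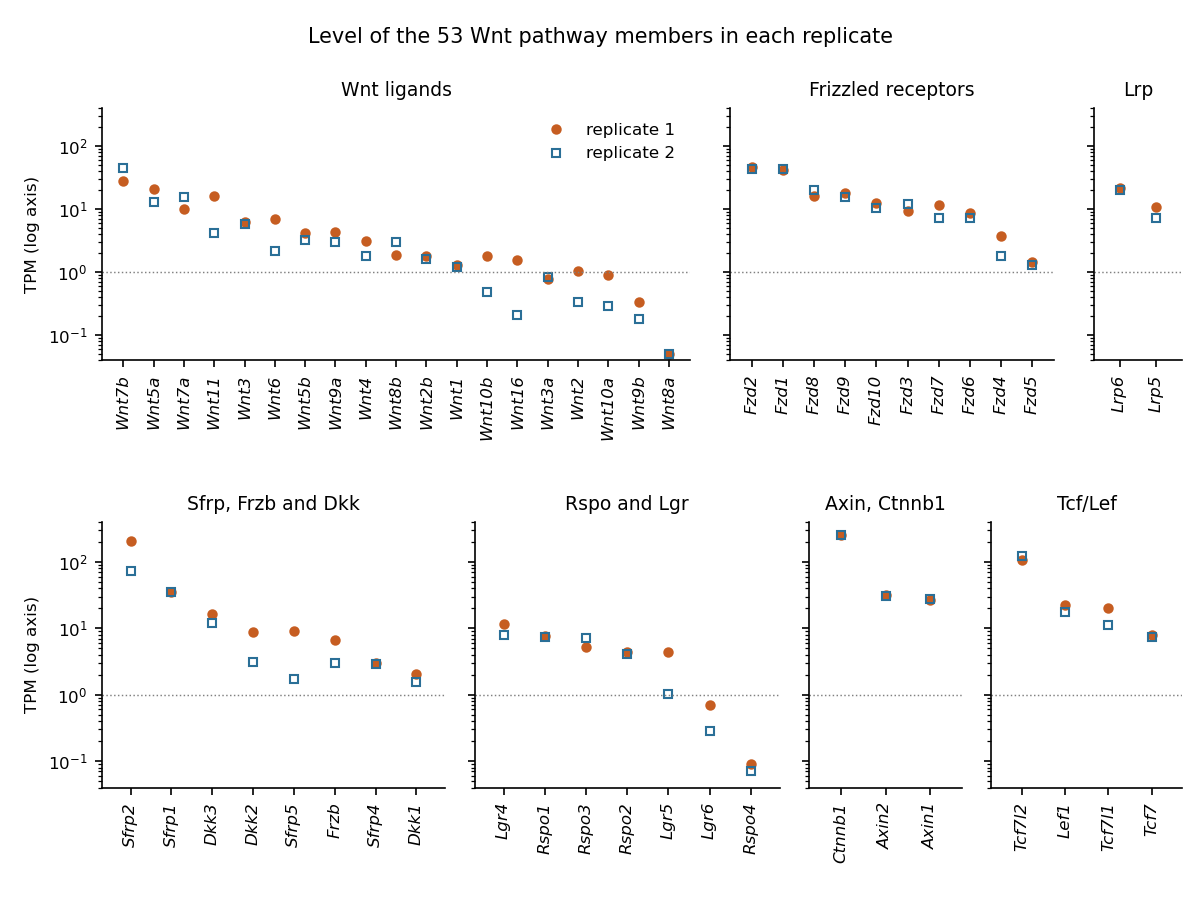
Level of each gene in TPM on a log axis, by class and ordered by mean, with filled circles for replicate 1 and open squares for replicate 2. The dotted line is 1 TPM, and levels under 0.05 TPM (Wnt8a) are drawn at 0.05. The receptors and effectors all lie above the line, 6 ligands have means below it, and the replicates lie farthest apart among ligands and modulators such as Wnt11, Wnt16, Sfrp5 and Lgr5.

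Of the ligands, 3 held most of the RNA. Wnt7b, known for its role in brain vessel growth and in dendrite growth, lies on chromosome 15 (chr15:85535437-85582473, mm10, minus strand). It was at 27.3 TPM in replicate 1 and 45.4 TPM in replicate 2, a mean of 36.3 ± 12.7 (SD, n = 2). Wnt7a, its close relative with a role in synapse formation, was at 10.1 and 15.3 TPM (12.7 ± 3.68, SD, n = 2). The ratio of Wnt7b to Wnt7a was steady at 2.71 and 2.97. Wnt5a, the main ligand of the branch that steers cell polarity and axons without beta-catenin, moved the other way, with 20.9 TPM in replicate 1 and 13.0 TPM in replicate 2 (17.0 ± 5.62, SD, n = 2). These 3 genes made up 52.7% of the summed ligand TPM in replicate 1 and 72.3% in replicate 2.

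The fourth ligand by mean, Wnt11, which acts in cell movement and in organs such as kidney and muscle, was at 16.1 TPM in replicate 1 and only 4.10 TPM in replicate 2. In replicate 1 it was therefore above Wnt7a. Below these came a group of 7 ligands with means between 1.71 and 6.02 TPM. Wnt3, a canonical ligand with roles in gastrulation and axon guidance, was at 6.31 and 5.73 TPM, and Wnt6, known from epithelia and somites, at 6.91 and 2.17 TPM. The others were Wnt5b at 4.21 and 3.27 TPM, Wnt9a at 4.36 and 3.03 TPM, Wnt4 at 3.15 and 1.77 TPM, Wnt8b at 1.86 and 3.01 TPM and Wnt2b at 1.81 and 1.60 TPM. Wnt8b and Wnt2b are textbook ligands of the cortical hem, and Wnt8b had more RNA in replicate 2, as did Wnt7a, Wnt7b and, at a low level, Wnt3a. That order is loose: in 14 of 18 pairs of neighbouring ligands the ranges of the replicates overlapped, and the 4 clear steps were those below Wnt7b, Wnt8b, Wnt2b and Wnt9b.

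Wnt1, the ligand of the midbrain and hindbrain border, was low but even, at 1.28 and 1.19 TPM from 176 and 220 expected counts. Wnt3a, a ligand of the dorsal midline and cortical hem, was at 0.76 and 0.84 TPM. Wnt10b was at 1.78 and 0.48 TPM, Wnt16 at 1.54 and 0.21 TPM, Wnt2 at 1.03 and 0.33 TPM, Wnt10a at 0.89 and 0.29 TPM and Wnt9b at 0.33 and 0.18 TPM. All 5 of these, known respectively from fat, bone, lung, skin and kidney, were higher in replicate 1, on 27 to 218 expected counts per library. Wnt8a, a ligand of the early posterior embryo, had 1 count in replicate 1 and 0 in replicate 2, below the 3 counts that a count of 0 allows, and is not told apart from absence at this depth.

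Some of the ligand genes are neighbours in the genome. In 4 places 2 ligand genes lie next to each other with under 100 kilobases between them. Wnt6 and Wnt10a, on the same strand of chromosome 1 with 6193 bases between them, were both lower in replicate 2, by log2 ratios of -1.56 and -1.28 on scaled counts. Wnt10b and Wnt1 are 11706 bases apart on chromosome 15 and point away from each other. There the log2 ratio was -1.96 for Wnt10b and -0.09 for Wnt1. The other two pairs were Wnt3a with Wnt9a (0.13 and -0.52) and Wnt9b with Wnt3 (-0.87 and -0.14), both on chromosome 11. Of these 8 genes only Wnt3, Wnt6 and Wnt9a reached the mean of 200 counts used for the replicate comparison, so the ratios of the low genes carry wide counting error.

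The Frizzled receptors, the Wnt-binding proteins of the cell surface, were more even than the ligands. Fzd2 (chr11:102604396-102608058, mm10, plus strand) was at 45.7 and 42.4 TPM (44.1 ± 2.34, SD, n = 2), and Fzd1 (chr5:4753839-4758035, mm10, minus strand) at 41.9 and 42.3 TPM (42.1 ± 0.30, SD, n = 2). This pair, closely related receptors of the canonical branch, made up 52.0% of all Frizzled TPM in replicate 1 and 53% in replicate 2. Fzd8, a receptor of forebrain progenitors, was at 16.0 and 19.8 TPM, and Fzd9, known from the hippocampus, at 18.0 and 15.4 TPM. Fzd10 followed at 12.6 and 10.5 TPM and Fzd3, needed for long axon tracts in the forebrain, at 9.42 and 11.8 TPM.

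At the lower end, Fzd7 was at 11.3 and 7.26 TPM and Fzd6, a polarity receptor of skin and hair, at 8.55 and 7.27 TPM. Fzd4, the receptor of vessel growth, was at 3.70 and 1.78 TPM. Fzd5, a receptor of the eye field, was the lowest at 1.44 and 1.28 TPM. The steps from Fzd1 down to Fzd8, from Fzd9 to Fzd10, from Fzd6 to Fzd4 and from Fzd4 to Fzd5 were clear of the replicate ranges. The ranges of Fzd2 and Fzd1 nearly touched, while Fzd8 with Fzd9, and the run from Fzd10 through Fzd3 and Fzd7 to Fzd6, overlapped. Between replicates 8 of the 10 Frizzled genes stayed within 1.5-fold, and the exceptions were Fzd4 and Fzd7. The share of all genes within that range was not computed.

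Lrp6, the more potent of the canonical co-receptors, was at 21.7 and 20.3 TPM (21 ± 0.97, SD, n = 2). Lrp5, known best from bone and retinal vessels, was at 10.8 and 7.31 TPM (9.04 ± 2.45, SD, n = 2). Lrp6 exceeded Lrp5 by a ratio of 2.01 in replicate 1 and 2.78 in replicate 2. Of Lrp5 TPM, 71.2% and 73.6% lay in coding transcripts, with the remainder in transcripts annotated for nonsense-mediated decay. For Lrp6 the coding share was 96.9% and 98.5%. Summed Frizzled TPM stood at 1.52 and 1.57 times summed ligand TPM, a ratio that barely moved although single ligands did.

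Among the secreted inhibitors, the Sfrp proteins and Frzb bind Wnts outside the cell and the Dkk proteins block or modify the Lrp co-receptors. Sfrp2 (chr3:83766321-83774316, mm10, plus strand) was the most abundant of the 8, at 209 TPM in replicate 1 and 72.3 TPM in replicate 2 (141 ± 97, SD, n = 2). In replicate 1 it was second only to Ctnnb1 among all 53 genes. The level also depends on how its RNA is split: Sfrp2-201, the coding transcript, took 59.3% and 58.8% of the gene, or 124 and 42.5 TPM, and Sfrp2-202, a shorter annotated processed transcript, took 40.0% and 40.8%. Sfrp1, the other Sfrp of the cortical ventricular zone, was at 35.6 and 35.2 TPM (35.4 ± 0.25, SD, n = 2).

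The remaining 3 genes of the Sfrp family were lower. Sfrp5 was at 9.12 TPM in replicate 1 and 1.73 TPM in replicate 2, Frzb, first known from cartilage, at 6.63 and 3.0 TPM, and Sfrp4 at 3.02 and 2.90 TPM. Of the Dkk genes, Dkk3, the divergent member that does not block Lrp6 as the others do, led at 16.4 and 12.1 TPM. Dkk2 was at 8.75 and 3.15 TPM and Dkk1, the classical head inducer, at 2.08 and 1.57 TPM, the lowest of the 8 inhibitors. All 8 had a log2 ratio of replicate 2 to replicate 1 below 0, from -2.39 for Sfrp5 to -0.01 for Sfrp1, though for Sfrp1 and Sfrp4 (-0.05) the spike-in scaling gave 0.20 and 0.16, so the direction of those 2 is not settled. Among all 14340 genes with a mean of at least 200 counts, 6522 had a ratio below 0. Summed Sfrp and Frzb TPM came to 2.38 times summed ligand TPM in replicate 1 and 1.13 times in replicate 2.

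R-spondins are secreted proteins that raise Wnt signalling by binding the Lgr receptors and sparing Frizzled from turnover. Rspo1 was at 7.72 and 7.49 TPM and Rspo2 at 4.42 and 4.06 TPM, while Rspo3, which is made by the cortical hem and roof plate, was at 5.15 TPM in replicate 1 and 7.27 TPM in replicate 2. Of Rspo1 TPM, 70.6% and 54.3% lay in its coding transcript, or 5.45 and 4.06 TPM, and the rest in a processed transcript of 446 bases. The coding part of Rspo1 was thus below Rspo3 in replicate 2. Rspo4, known from nails, was close to absent at 0.09 and 0.07 TPM, from 13 counts in each library. Of their receptors, Lgr4 led at 11.6 and 7.90 TPM. Lgr5, known as a stem cell marker of gut and hair, was at 4.45 TPM in replicate 1 and 1.04 TPM in replicate 2, and Lgr6 at 0.71 and 0.28 TPM. All 3 Lgr genes were lower in replicate 2, and of the 3 detected Rspo genes Rspo1 and Rspo2 were slightly lower and Rspo3 higher on scaled counts; under spike-in scaling Rspo2 turned to slightly higher (0.09).

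The effectors were the most abundant class and the most even. Ctnnb1 (chr9:120929216-120960507, mm10, plus strand), which encodes beta-catenin and serves both the pathway and cell junctions, was at 252 and 254 TPM (253 ± 0.79, SD, n = 2). That places it at percentile 97.8 of protein-coding genes. Axin1, the scaffold of the destruction complex, was at 27.0 and 27.2 TPM (27.1 ± 0.21, SD, n = 2). Axin2, a scaffold that is itself a classical target of the pathway, was at 31.9 and 30.5 TPM (31.2 ± 1.01, SD, n = 2). The ratio of Axin2 to Axin1 was 1.19 and 1.12 over all transcripts. Of Axin2 TPM, 79.2% and 75.5% lay in coding transcripts, or 25.31 and 23.05 TPM. That coding part was below the coding part of Axin1, at 26.96 and 26.84 TPM.

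Of the Tcf/Lef factors, the DNA-binding partners of beta-catenin, Tcf7l2 (chr19:55741820-55933654, mm10, plus strand) was by far the highest, at 106 and 122 TPM (114 ± 11.3, SD, n = 2). It made up 67.8% of Tcf/Lef TPM in replicate 1 and 77.0% in replicate 2. Lef1, mostly an activator, was at 22.6 and 17.9 TPM. Tcf7l1, mostly a repressor and linked to immature cells, was at 20.0 and 11.2 TPM, so that the ranges of Lef1 and Tcf7l1 overlapped. Tcf7, best known from T cells, was the lowest at 7.99 and 7.47 TPM. Summed over the 4 factors the level was 157 TPM in replicate 1 and 159 TPM in replicate 2, and Ctnnb1 stood at 1.61 and 1.59 times that sum.

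All 4 Tcf/Lef genes carried a short coding exon, of a length divisible by 3, that most junction reads skipped. The exons are printed because the share of mRNA that holds them was read for each gene; capitals mark the exon, and lower case marks 15 bases of the neighbouring exons on each side, in the transcript named, from GENCODE M21 on mm10.
Tcf7l2 exon 4 of 12, Tcf7l2-211, chr19:55755014-55755082, plus strand: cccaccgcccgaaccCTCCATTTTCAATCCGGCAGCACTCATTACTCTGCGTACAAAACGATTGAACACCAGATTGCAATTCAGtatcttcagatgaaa
Tcf7l1 exon 5 of 13, Tcf7l1-202, chr6:72648801-72648842, minus strand: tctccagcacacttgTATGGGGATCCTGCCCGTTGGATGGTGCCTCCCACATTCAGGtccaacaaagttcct
Lef1 exon 6 of 12, Lef1-201, chr3:131191023-131191106, plus strand: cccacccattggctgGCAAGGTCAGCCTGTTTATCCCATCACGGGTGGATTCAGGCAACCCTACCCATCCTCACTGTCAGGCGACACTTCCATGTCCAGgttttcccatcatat
Tcf7 exon 5 of 10, Tcf7-201, chr11:52258853-52258945, minus strand: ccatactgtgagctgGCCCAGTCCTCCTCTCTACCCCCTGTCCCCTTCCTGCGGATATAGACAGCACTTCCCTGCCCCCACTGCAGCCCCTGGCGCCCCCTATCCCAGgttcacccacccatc

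Inclusion was read from the deposited counts of reads over splice junctions on mm9, as the mean of the 2 junctions that join the exon to its neighbours over that mean plus the reads that join the neighbours directly. That table has 2 fields of values that no label ties to the numbered replicates, so they are called field 1 and field 2, and the intervals are exact 95% binomial intervals for counting error only. The 69-base exon of Tcf7l2 was included in 16.0% (12.2 to 20.6) of reads in field 1 and 10.9% (8.18 to 14.5) in field 2. Its 2 sides differed 1.75-fold in reads, which the intervals do not cover. The 42-base exon of Tcf7l1 was included in 21.5% (17.0 to 26.6) and 26.3% (20.6 to 33.1). For the 84-base exon of Lef1 the values were 20.2% (16.0 to 25.3) and 10.4% (7.67 to 14.0), and these intervals do not overlap. The 93-base exon of Tcf7 was included in 7.83% (2.86 to 19.0) and 8.45% (3.16 to 17.5), on 53 and 65 skipping reads.

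The mm10 transcript tables give a second reading of the same exons. Transcripts with the Tcf7l2 exon held 12.9% of the TPM of transcripts spanning it in replicate 1 and 10.5% in replicate 2, those with the Tcf7l1 exon 16.1% and 14.5%, and those with the Lef1 exon 23.1% and 11.8%. For Tcf7l1 both shares lay below the lower bounds of both junction intervals, 17.02% and 20.55%. The readings part furthest for Tcf7, where 100% of the TPM was listed in transcripts that hold the exon. This is because neither the deposited transcripts nor those of GENCODE M21 include one that joins its neighbours directly. Among the Lef1 transcripts, Lef1-204 took 48.1% and 55.9% of Lef1 and Lef1-202 took 26.5% and 29.1%, whereas Lef1-201, with the exon printed above, took 12.5% in replicate 1 and 0% in replicate 2. Tcf7l2 was spread over 22 deposited transcripts, and its highest, Tcf7l2-203, took only 27.9% and 28.3%.

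At the 3′ end, Tcf7l2 also varied in a 51-base exon, included in 81.7% (77.6 to 85.4) and 82.9% (79.6 to 85.9) of junction reads, and in a 25-base exon, included in 92.4% (89.1 to 95) and 95.5% (93.3 to 97.2). Transcripts that hold the 25-base exon had 75.9% of the spanning TPM in replicate 1 and 81.8% in replicate 2, below both junction intervals. The 41-base exon before the last exon of Lef1-201 was included in 46.9% (41.5 to 52.5) and 39.5% (34.4 to 45.0) of junction reads. Outside the Tcf/Lef genes, Axin1 had the clearest case, a 108-base coding exon, number 9 of 11 in Axin1-201.
Axin1 exon 9 of 11, Axin1-201, chr17:26192516-26192623, plus strand: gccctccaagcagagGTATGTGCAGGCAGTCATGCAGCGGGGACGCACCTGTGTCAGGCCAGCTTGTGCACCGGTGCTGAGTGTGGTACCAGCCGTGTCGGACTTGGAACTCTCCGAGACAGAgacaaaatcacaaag

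The Axin1 exon was included in 26.5% (19.7 to 34.7) of junction reads in field 1 and 24.2% (18.2 to 31.0) in field 2. Transcripts that hold it, led by Axin1-201, had 50.5% of the spanning TPM in replicate 1 and 52.8% in replicate 2, so the transcript estimate lay above the upper bound of the junction interval in both cases. In Dkk3 an 84-base coding exon was skipped by 30 and 47 reads, for an inclusion of 87.4% (82.6 to 91.4) and 80.9% (75.4 to 85.6), and no GENCODE M21 transcript skips it. A 394-base exon of Lrp6 was included in 95.1% (89.7 to 98.2) and 94.2% (89.3 to 97.3), and its 2 sides differed 1.81-fold in reads. Only exons with a listed junction that skips them could enter, so the counts that follow do not give a share among all exons. In all, inclusion and skipping could be read for 35 exons of 17 genes. Of these, 11 exons in 7 genes had a mean inclusion between 5% and 95%, and 8 of the 11 were in Tcf/Lef genes, which supplied 15 of the 35 exons read.

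**Figure D2:**
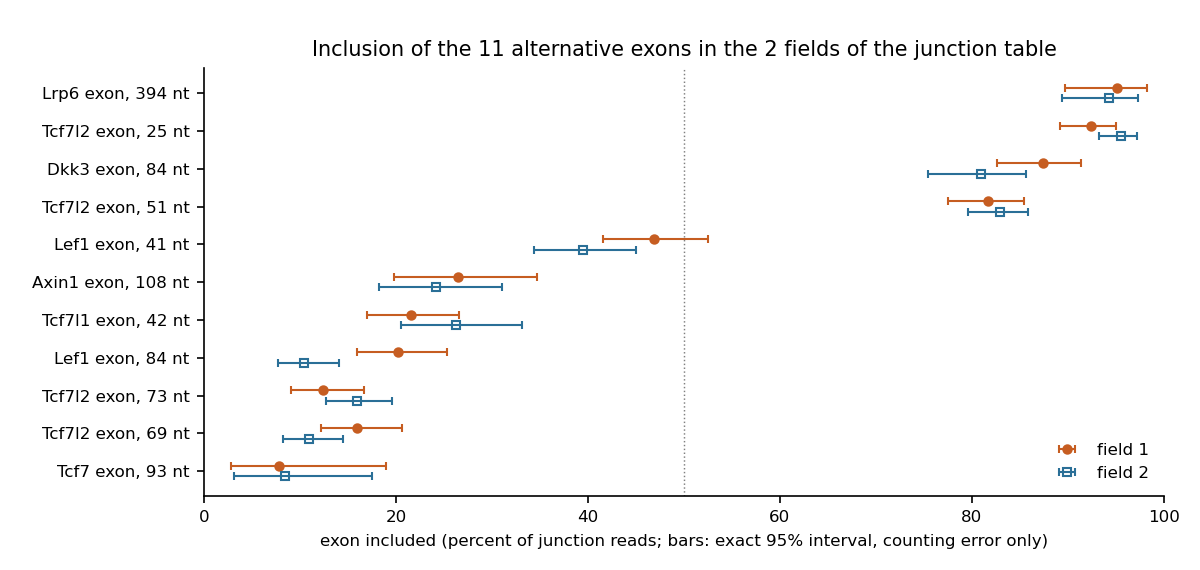
Share of junction reads that include each of the 11 alternative exons, in percent, with field 1 as filled circles, field 2 as open squares and exact 95% intervals for counting error as bars; exons are named by gene and length in nucleotides. The short exons of Tcf7, Tcf7l2 (69 nucleotides), Tcf7l1 and Lef1 (84 nucleotides) all have values below 30%, and the Lef1 exon is the one whose fields stand apart among these 4.

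Ligands could be told apart by isoform in fewer cases. Wnt5a was split between 2 coding transcripts, Wnt5a-202 with 37.9% and 36.8% and Wnt5a-201 with 37.7% and 36.4%. The rest lay in processed transcripts, so the coding part of Wnt5a was 15.85 TPM in replicate 1 and 9.53 TPM in replicate 2. Wnt7a was wholly coding, at 10.08 and 15.29 TPM, so the place of Wnt5a above Wnt7a by mean TPM includes processed transcripts. Wnt11 was led by Wnt11-205, with 39.6% and 44.3%, ahead of the short coding transcript Wnt11-203, with 34.6% and 33.7%, and Wnt11-204, annotated for nonsense-mediated decay, with 16.7% and 20.1%. With Sfrp2, Axin1, Tcf7l2 and Lef1, these were the 6 genes with no transcript above 60% in either replicate. A further 24 of the 53 genes had a single deposited transcript.

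The replicates were compared on expected counts scaled by edgeR's TMM, for the 44 of 53 genes with a mean of at least 200 counts, as 1 library against another with no test. In replicate 2, 9 of the 44 genes, or 20.5%, were at least 2-fold lower, against 3.95% of all 14340 genes of that abundance. No member was at least 2-fold higher, against 0.286% of all genes. The 9 were Sfrp5, Wnt11, Lgr5, Wnt6, Sfrp2, Dkk2, Lgr6, Frzb and Fzd4, so 6 were modulators, 2 ligands and 1 a receptor, and no effector was among them. That split depends on the count minimum, which leaves out 8 of 19 ligands: at a mean of 50 counts, Wnt2, Wnt10a, Wnt10b and Wnt16 were also at least 2-fold lower. Sfrp5 was 5.24-fold lower, Wnt11 3.92-fold, Lgr5 3.91-fold, Wnt6 2.94-fold, Sfrp2 2.89-fold, Dkk2 2.77-fold, Lgr6 2.43-fold, Frzb 2.20-fold and Fzd4 2.08-fold. Scaling to the spike-ins, which moves the median of all genes from 0.02 to 0.23 in log2, kept 7 of the 9 past 2-fold and left Fzd4 (-0.84) and Frzb (-0.93) short of it.

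Of the 44 genes, 27 were within 1.5-fold, among them 6 of the 7 effectors. The share of all genes within 1.5-fold was not computed, so that count does not set the members apart. A log2 ratio below 0 was found for 34 of the 44 and above 0 for 10, with a median of -0.25. Of all 14340 genes of that abundance, 6522 were below 0 and 7818 above, with a median of 0.02. The 10 above 0 were Wnt7a, Wnt7b, Wnt8b, Fzd1, Fzd3, Fzd8, Rspo3, Axin1, Ctnnb1 and Tcf7l2. Wnt7b had the highest ratio, 0.73, or 1.66-fold. Directions near 0 depend on the scaling: under spike-in scaling 10 of the 34 genes below 0 turned above it, namely Wnt2b, Wnt3, Fzd2, Fzd5, Lrp6, Sfrp1, Sfrp4, Rspo2, Axin2 and Tcf7. Scaling to the total count turned Fzd1 and Axin1 just below 0.

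**Figure D3:**
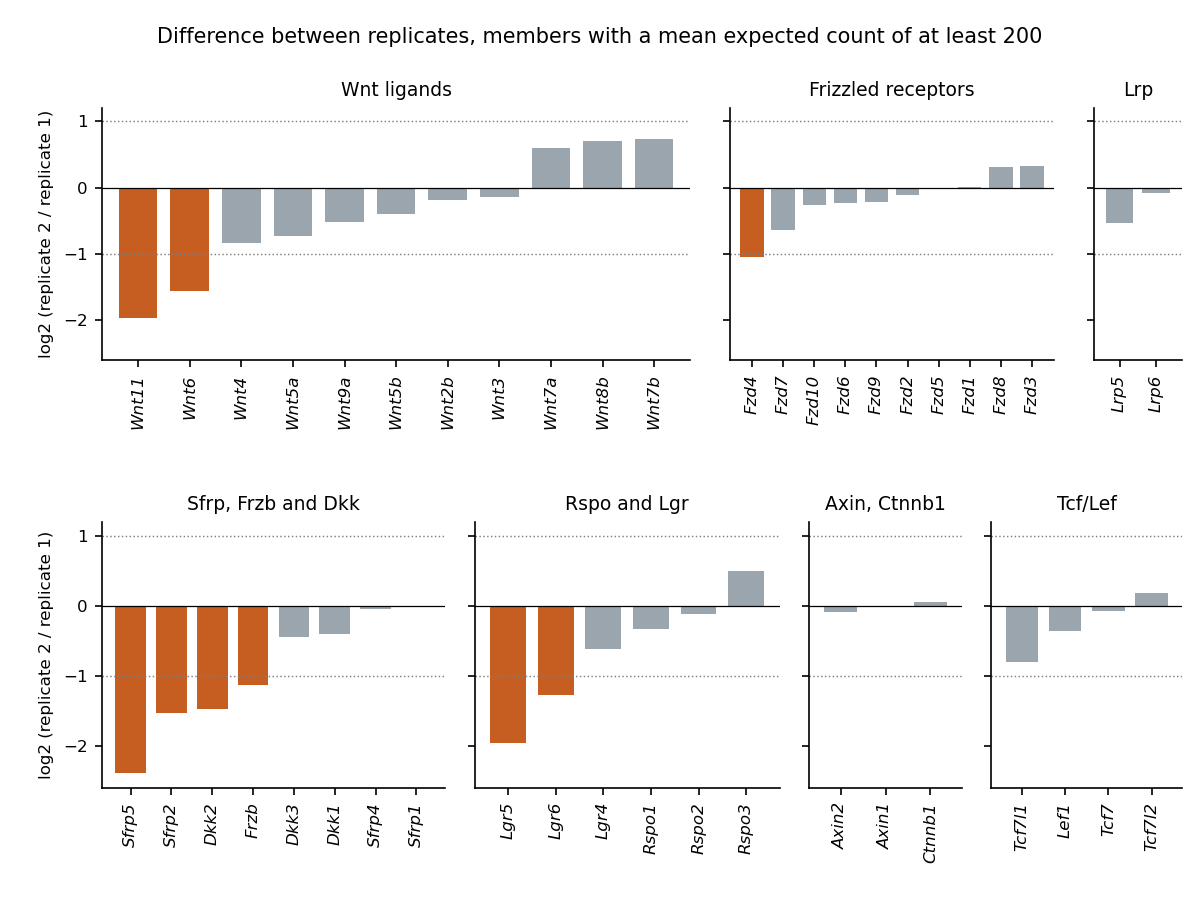
Log2 ratio of replicate 2 to replicate 1 on TMM-scaled expected counts, for the 44 genes with a mean of at least 200 counts, by class; orange bars are at least 2-fold lower and dotted lines mark 2-fold. The 9 orange bars are 2 ligands, Fzd4, 4 secreted inhibitors and 2 Lgr genes, and no bar reaches the upper line.

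Markers of other tissues moved with these genes. All 8 skeletal muscle markers were at least 2-fold lower in replicate 2, and several were close to 0 there: Ckm was at 16.4 and 0.06 TPM and Tnnc2 at 50.4 and 0.46 TPM. The same held for 8 of 8 markers of skin and other epithelia (summed 114 and 16.6 TPM), 5 of 6 of cartilage, 6 of 8 of meninges and fibroblasts (summed 1280.3 and 531 TPM) and 5 of 6 of peripheral ganglia and Schwann cells (summed 171 and 86.2 TPM). Fibroblast markers stayed well above 0 in both, with Col1a1 at 311 and 125 TPM. All 7 telencephalon markers were higher in replicate 2, 3 of them by at least 2-fold, with summed levels of 401 and 739 TPM. So were all 6 neuron markers, all 6 progenitor markers and 4 of 5 choroid plexus markers above the count minimum, none by 2-fold. Of 6 hindbrain and cord markers, Hoxc6 (1.32 and 11.9 TPM) and Hoxc8 (0.02 and 4.99 TPM) were at least 2-fold higher in replicate 2. None of the 5 cortical hem and roof plate markers above the count minimum, a list that holds the member Rspo3, was 2-fold apart. Of these, 4 were lower in replicate 2, with log2 ratios from -0.91 for Msx2 to -0.09 for Msx1. Only 1, the member Rspo3, was higher (0.50). Of the 7 brain endothelium markers none was 2-fold apart (summed 236 and 243 TPM), while Fzd4, the vessel receptor, was 2.08-fold lower in replicate 2. The part of each of these tissues in the differences of the Wnt genes was not tested.

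**Figure D4:**
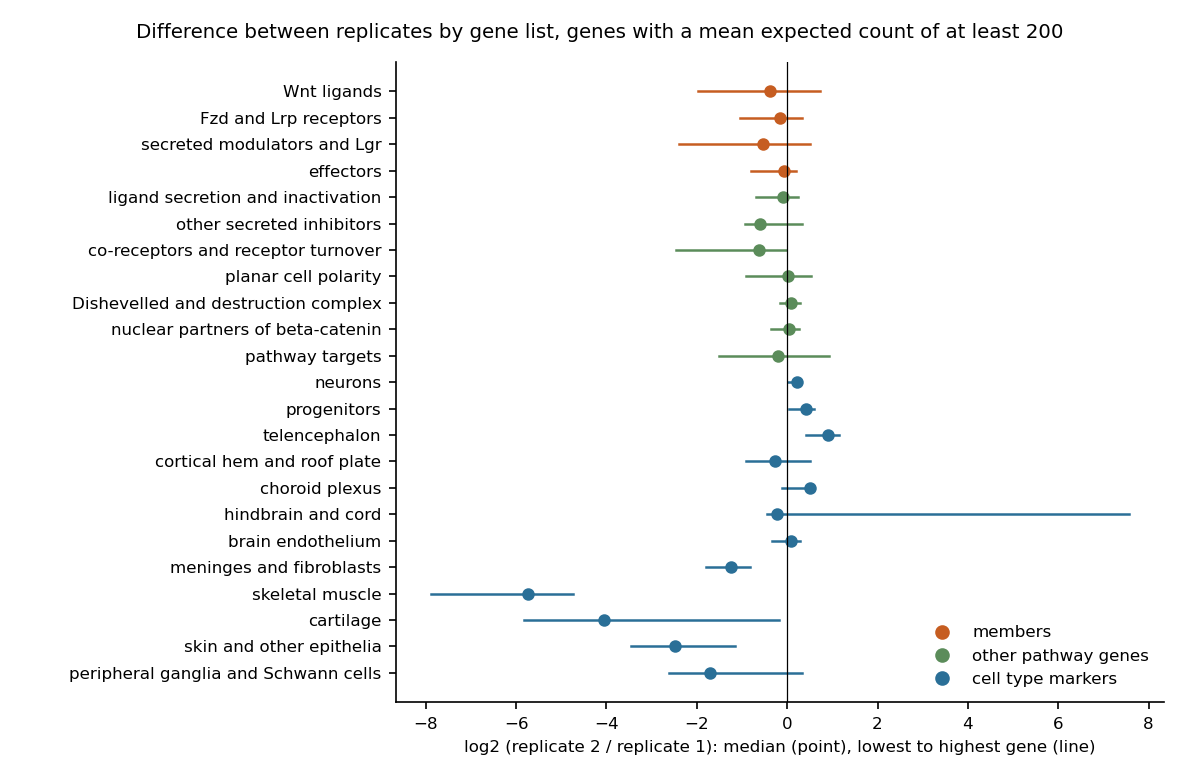
Log2 ratio of replicate 2 to replicate 1 by gene list, with the median as a point and the lowest to highest gene as a line, for genes with a mean of at least 200 counts; orange lists are the 53 members by class, green lists other pathway genes and blue lists cell type markers. The destruction complex lies close to 0 (-0.17 to 0.29), and the effectors run from -0.80 to 0.19. The muscle, cartilage and skin lists have medians far below 0. The telencephalon list has a median of 0.91, the choroid plexus list 0.51, the progenitor list 0.42 and the neuron list 0.21.

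A further 83 pathway genes outside the 53 were read from 7 lists, and 76 of them were detected. At the same count minimum 5 of 74 were at least 2-fold lower in replicate 2 and none was higher, beside the 3.95% and 0.286% of all genes. At the share of all genes, each list would hold under 1 such gene, so a count of 0 sets no list apart. None of the 16 genes of Dishevelled and the destruction complex was 2-fold apart, and their levels ran from 284 ± 3.55 TPM (SD, n = 2) for the kinase Csnk1e and 163 ± 12.2 TPM for the kinase Csnk1a1 down to 7.38 ± 0.06 TPM for the scaffold Amer1. Likewise none of the 14 nuclear partners of beta-catenin was 2-fold apart, with the corepressors Tle2 at 113 and 86.7 TPM and Tle3 at 80.2 and 92.4 TPM at the top and Pygo1 at 11.1 and 10.9 TPM at the bottom. Of 13 planar cell polarity genes none was 2-fold apart either; Celsr3 was at 89.5 and 104 TPM, Scrib at 93.0 and 90.6 TPM and Prickle3, the lowest, at 5.32 and 3.01 TPM.

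Of the 11 co-receptors and regulators of receptor turnover, 3 were at least 2-fold lower in replicate 2. These were Kremen2, a Dkk receptor, at 5.00 and 0.90 TPM, Ror1, a Wnt5a receptor, at 2.38 and 0.96 TPM, and Adgra2, a Wnt7 co-receptor of brain vessels, at 23.9 and 10.2 TPM. Ryk, a Wnt receptor of axons, was the highest of that list and level at 43.9 and 43.8 TPM, followed by Ptk7, a polarity co-receptor, at 31.1 and 22.4 TPM, and Rnf43, a ubiquitin ligase for Frizzled, was the lowest at 1.09 and 1.19 TPM. Of 9 other listed inhibitors 6 were detected and none of the 5 above the count minimum was 2-fold apart. Igfbp4, a growth factor binding protein, was at 272 and 151 TPM, Apcdd1 at 88.7 and 81.3 TPM and Cer1 at 0.16 and 0.15 TPM. All 5 genes for ligand secretion and inactivation were detected and none was 2-fold apart. Tmed2 was at 110.0 and 103 TPM, Porcn, which attaches the lipid to Wnts, at 75.9 and 86.1 TPM and Notum, which removes it, at 2.64 and 1.62 TPM.

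Of 15 genes known as targets of the pathway in some tissue, 11 were detected. The highest were Ccnd1 at 50.2 and 43.5 TPM and Myc at 36.0 and 25.7 TPM, which many other signals also drive, and the lowest was Cdx2, with 1 count in each library. Among the 10 that reached the count minimum, Cd44 (6.29 and 2.40 TPM) and Bmp4 (7.66 and 3.18 TPM) were at least 2-fold lower in replicate 2. The log2 ratios of the other 8 ran from -0.51 for Nkd2 (15.9 and 11 TPM) to 0.92 for Neurog1 (8.37 and 15.8 TPM).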

How the data were processed

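Per the text deposited with the files, gene and transcript values are on mm10 with GENCODE M4. The authors deposited expected counts, TPM and FPKM per gene and transcript, and the percent of each gene in each transcript; expected counts need not be whole and were rounded for scaling. On mm9, the deposited tables give RPKM for genes of Ensembl release 65 and read counts per splice junction, in 2 fields not matched to the replicates. The aligner is not given in the sources used here, nor is the program behind the estimates. Symbols, positions and exons came from GENCODE M21 by stable identifier, which matched 42462 of 43346 genes; mm9 exons were matched by transcript and length, never by coordinates.

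Replicates were compared on edgeR 4.0.16 TMM-scaled counts (R 4.3.3, prior count 1), as log2 ratios with no test; the calculation of the ratios was checked on simulated data. Alternatives were DESeq2 1.42.0 size factors, total and spike-in scaling, prior count 5, other count minimums, TPM thresholds, pseudocounts, FPKM, RPKM and each replicate alone. Junction exons needed 50 reads and a listed junction that skips them. To be called alternative, their junctions also had to hold 80% of the reads of both neighbouring exons. A gene without counts may have up to 3, a floor of 0.0301 CPM in replicate 1 and 0.0223 CPM in replicate 2; floors and intervals cover counting error only.

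Members and lists were chosen with earlier results of these data known. Named in full are, per class, the 4 highest and the lowest genes by mean TPM, all genes at least 2-fold apart and all with no transcript above 60%; of other lists, the 2 highest, the lowest and genes 2-fold apart. Other genes named are the remaining members and markers. Promoter and protein sequences were not used here.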

Additional observations from a re-analysis of the deposited data

How the results depend on the processing

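The number of genes detected was 44 and 47 in replicates 2 and 1 alone, and 40 to 49 at thresholds of 2 and 0.5 TPM or 1 FPKM; at 1 RPKM in the mm9 table it was 24, where RPKM runs several-fold below TPM for the same genes. The receptor minus ligand gap, 2.16, was 2.60 with a pseudocount of 0.1, 1.28 with 5, 2.51 on scaled CPM, 0.97 in RPKM and 1.43 over genes of at least 1 TPM. The effector minus ligand gap, 3.32, was 3.83, 2.24, 3.62, 1.71 and 2.60 in the same order. The modulator minus ligand gap, 1.00, was 0.41 in RPKM. All kept their sign. Each replicate alone put the share of its own 3 highest ligands between 58.2% and 72.3%, since Wnt11 is among them in replicate 1. The 9 genes at least 2-fold lower in replicate 2 became 14 with no count minimum, 13 at 50 counts, 7 with spike-in scaling and 6 on log2(TPM + 1). No setting made a member 2-fold higher. The share of all genes was computed only at the main setting, so the counts at the other settings have no such share beside them. The order of the 3 highest genes of each class was the same in RPKM. No paired analysis was possible because there is 1 group. Leaving out a replicate cannot be applied to the difference between the replicates. Ratios of genes under 200 counts, which include 8 of the 19 ligands, are limited by depth.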

Other observations

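The 2 fields of the mm9 tables ran in opposite order for the 9 genes that were at least 2-fold lower in replicate 2. RPKM was lower in field 1 for 9 of 9, for example Sfrp2 at 9.40 in field 1 and 28.1 in field 2, and Wnt11 at 0.39 and 1.68. Junction reads were lower in field 2 for 9 of 9, for example Sfrp2 with 3626 reads in field 1 and 1796 in field 2, and Wnt11 with 635 and 208. The fields were therefore not read as replicates anywhere, and a field number of one table was not carried to the other. A 73-base exon of Tcf7l2 was included in 12.4% (9.08 to 16.6) and 15.9% (12.7 to 19.6) of junction reads; its 2 sides differed 2.72-fold in reads, and it was matched to no GENCODE M21 exon, so its position is not given.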
